A study of Mus musculus with 16 samples.

Results

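Fxyd6, Slc35b4, Pou6f1, Cracr2a, Fggy, Pgam5, Smarcd3, Rimkla and Mphosph8 are 9 of the 19540 genes in a table of normalised RNA-seq reads from regulatory and conventional T cells of mouse visceral fat. They were chosen because their values in the regulatory T cells (Treg) of Hpgd-deleted mice do not overlap those in the Treg of wild type mice. Their difference between these Treg groups is therefore the ground for the choice, and it is given as a description with no test. What the rule of the choice did not use is how the genes behaved in conventional T cells (Tconv), and how the genes around them in their pathways behaved. The 9 genes and the lists of pathway genes were, however, set with earlier results of these data known. All 9 symbols were found in the table, and all 9 reached a value of 10 in at least 3 libraries, the level needed for testing, Fxyd6 and Fggy through Treg libraries alone.

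The series sequenced RNA from Treg and Tconv sorted from the visceral adipose tissue (VAT) of 12-week-old C57BL/6JRcc mice, to compare animals whose Treg lack Hpgd with wild type animals. The libraries fell into 4 groups by their titles: 3 of Treg from wild type mice (Treg WT), 4 of Treg from deleted mice (Treg KO), 4 of Tconv from wild type mice (Tconv WT) and 5 of Tconv from deleted mice (Tconv KO). The label for the mouse line names a floxed Hpgd allele and the Foxp3-YFP-Cre driver and is identical in all 16 libraries, so the genotype rests on the titles, and whether the wild type controls carry the Cre is not stated in the sources at hand. The driver acts in cells that express Foxp3, as Treg do and Tconv by definition do not. The series text gives 5 deleted and 4 wild type animals without tying libraries to animals, so p-values measure the spread between these libraries, which may in part be technical. Each genotype has fewer animals than libraries, so some libraries share animals. The main fit treats all libraries as independent, and the Treg against Tconv comparisons ignore any pairing by mouse.

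Each value is a read number scaled by the size factor of its library, with 1 added, so that 1.00 is no reads, and they are called levels here. They are not divided by gene length, so levels of different genes are not compared. Libraries held 3.39 to 56.7 M reads, and 3 reads were worth a level of 1.38 in the deepest (Tconv KO 3) and 7.09 in the shallowest. More genes had reads in every Treg KO library (15135 to 16041) than in any Treg WT library (14216 to 14874). Hpgd, the enzyme that inactivates prostaglandin E2, was at 73.1 and 56.0 in Treg WT 1 and 2, at 4.31 in the library labelled Treg WT 3, which is 3 reads, and at 1.00 to 3.41 in the Treg KO libraries. Because Treg WT 3 stood with the deleted libraries for the targeted gene, the log2 difference between the Treg groups of each of the 9 genes is also given without it. Foxp3, the factor that defines Treg, was at 407 ± 182 (SD, n = 3) in Treg WT and 403 ± 120 (SD, n = 4) in Treg KO, against 15.5 ± 18.4 (SD, n = 4) in Tconv WT and 1.98 ± 1.73 (SD, n = 5) in Tconv KO. All 5 T cell markers found in the table had reads in every group. The summed level of 8 macrophage markers ran from 0.9 to 34.2 in Treg WT, where C1qa, C1qc and Lyz2 had no reads. It was 273.6 in Treg KO 1 and 22.7 to 79.9 in the other Treg KO libraries. The summed level of 5 adipocyte markers was 36.5 to 48.0 in Treg WT, 137.4 in Treg KO 3 and 21.7 to 47.6 in the other Treg KO libraries. That of 5 red cell and platelet markers was 34.0 to 91.5 in Treg WT, 1317.6 in Treg KO 1 and 31.2 to 87.6 in the other Treg KO libraries. Treg WT 2 stood apart for 5 genes listed as type 2 innate lymphoid cell markers (Il5, Il13, Rora, Il1rl1 and Areg). Their sum was 4585.8 there, against 25525.9 and 31507.7 in the other Treg WT libraries and 20796.6 to 27712.0 in Treg KO. In Tconv it was 2417.3 to 10553.2 in WT and 3870.8 to 11787.3 in KO. The sum was thus high in most Treg libraries and cannot be read as a share of innate lymphoid cells. Treg WT 2 was also the lowest Treg WT library for Slc35b4, Pou6f1 and Pgam5, whose Treg log2 differences without it were 2.27, 1.73 and 1.35. In Tconv WT 1 the summed level of 6 neutrophil and mast cell markers was 14621.1, against at most 116.8 in any other library, and in Tconv WT 3 that of the red cell and platelet markers was 158944.5, against at most 1497.2. The macrophage sum was 1076.3 in Tconv WT 1, against at most 198.7 in the other Tconv libraries. That of 5 CD8 T and NK cell markers was 1663.9 in Tconv WT 4, against 249.7 to 788.7 in the other Tconv libraries. The part of the number of genes with reads, or of these other cells, in the differences below was not tested. In bulk libraries, a lower share of cells that express a gene and less RNA per cell cannot be told apart.

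The genes come from different pathways. Some work at membranes: FXYD proteins tune the sodium pump, SLC35 carriers move nucleotide sugars into the Golgi and endoplasmic reticulum, and CRACR2A binds calcium and acts with the ORAI and STIM proteins of store-operated calcium entry, the route by which T cells admit calcium after antigen. Others are enzymes: FGGY phosphorylates a carbohydrate, PGAM5 is a phosphatase of mitochondria, and RIMKLA joins N-acetylaspartate to glutamate. The rest act in the nucleus: POU6F1 is a homeodomain transcription factor, SMARCD3 is a subunit of BAF chromatin remodelling complexes, and MPHOSPH8 reads methylated histone H3 within the HUSH complex, which silences repeats and young retroelements. VAT Treg depend on the nuclear receptor PPAR-gamma, and prostaglandin E2 signals through cAMP, which is why motifs for these routes were looked for in the promoters.

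RefSeq promoter windows on GRCm38.p6, 250 bases before to 50 after the start, were found for 8 of the 9 genes, with 2 starts for Fggy. The 250 bases before the start are shown for 2 genes that were higher and 2 that were lower in Treg KO, so that the pairs can be compared by eye. They are Fxyd6 at chr9:45369935-45370184 on the plus strand, Pou6f1 at chr15:100599985-100600234 on the minus strand, Rimkla at chr4:119492599-119492848 on the minus strand, and Mphosph8 at chr14:56667998-56668247 on the plus strand. Each is written 5′ to 3′ along its gene, and capitals mark matches to 3 motifs on either strand. The GC box, bound by factors of the Sp1 family, is spelled GGGCGG. The half-site of the element that answers to cAMP is spelled TGACG. The third is the CCAAT box, whose name is its spelling.
Fxyd6: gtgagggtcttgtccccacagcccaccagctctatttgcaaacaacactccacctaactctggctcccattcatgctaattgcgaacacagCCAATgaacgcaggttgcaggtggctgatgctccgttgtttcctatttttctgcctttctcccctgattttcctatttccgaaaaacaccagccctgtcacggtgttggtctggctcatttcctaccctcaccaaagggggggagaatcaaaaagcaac
Pou6f1: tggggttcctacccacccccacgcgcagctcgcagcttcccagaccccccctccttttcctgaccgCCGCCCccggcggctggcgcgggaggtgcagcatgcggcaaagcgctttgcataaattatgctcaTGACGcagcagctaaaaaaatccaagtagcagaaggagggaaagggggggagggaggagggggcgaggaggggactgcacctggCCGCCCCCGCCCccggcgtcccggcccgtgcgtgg
Rimkla: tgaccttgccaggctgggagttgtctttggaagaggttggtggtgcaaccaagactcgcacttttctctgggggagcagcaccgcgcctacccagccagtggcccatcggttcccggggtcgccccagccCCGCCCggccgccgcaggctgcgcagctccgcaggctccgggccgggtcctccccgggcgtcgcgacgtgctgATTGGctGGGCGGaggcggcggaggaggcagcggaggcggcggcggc
Mphosph8: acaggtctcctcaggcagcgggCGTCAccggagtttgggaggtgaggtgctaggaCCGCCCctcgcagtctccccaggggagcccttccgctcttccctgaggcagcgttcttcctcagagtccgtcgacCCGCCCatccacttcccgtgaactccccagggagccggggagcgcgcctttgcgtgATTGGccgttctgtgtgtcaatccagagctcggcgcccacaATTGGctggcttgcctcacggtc

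The Fxyd6 window holds a CCAAT box and no GC box, while Pou6f1, Rimkla and Mphosph8 hold several GC boxes each. The full windows of Pou6f1, Rimkla and Mphosph8 were 70.3%, 73.3% and 67.0% G or C, against 54.3% for Fxyd6 and a median of 52.7% over all 32851 windows of the table. The cAMP half-site was in 3 of the 9 windows, those of Pou6f1, Smarcd3 and Mphosph8, and in 20.8% of all windows. The full cAMP element TGACGTCA, which contains that half-site, was in none of the 9 and in 1.8% of all. The GC box was in 6 windows (35.7% of all) and the CCAAT box in 5 (37.4% of all). None of the 9 held the direct repeat that PPAR and RXR bind, the forkhead core TGTTTAC, the octamer ATGCAAAT or the TATA box TATAAA, which were in 13, 1199, 570 and 4473 of all windows. A match is a run of letters, not a measured binding site.

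**Figure D1:**
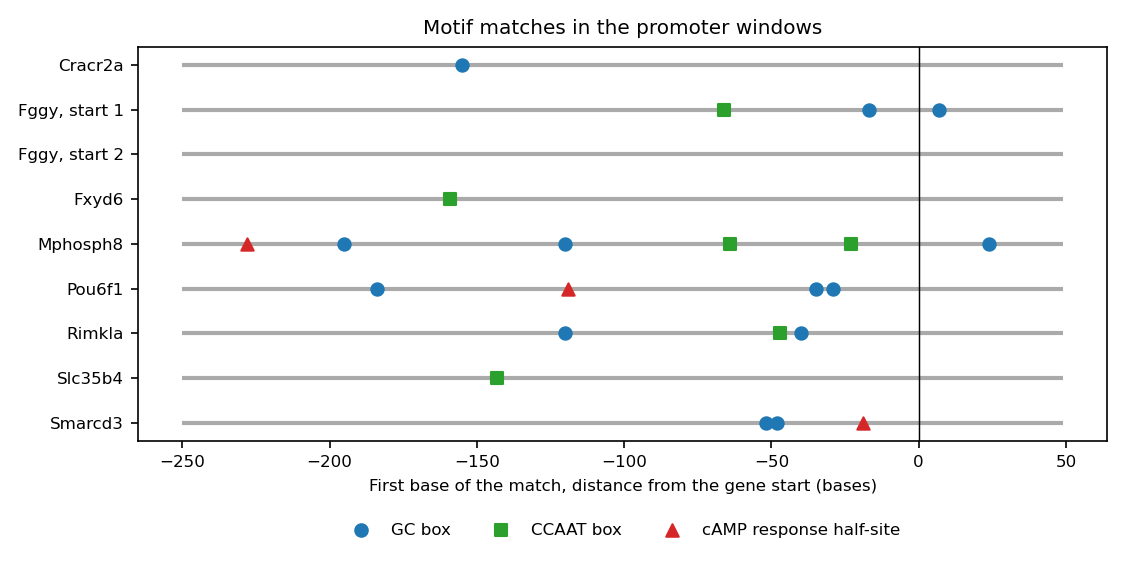
Matches to 3 motifs in the promoter windows of 8 genes (9 starts), by distance in bases of the first base of the match from the gene start; each grey line is 1 window, with circles for GC boxes, squares for CCAAT boxes and triangles for cAMP half-sites. The windows of Pou6f1, Smarcd3 and Mphosph8 carry a half-site, and the second start of Fggy carries none of the 3.

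Of the 14319 genes tested, 6.01% did not overlap between the Treg groups, 3.35% with Treg KO higher and 2.66% with Treg KO lower. All 9 genes are of this kind because they were picked for it, 7 with Treg KO higher and 2 with Treg KO lower, and nothing can be read from that count. Differences are mean log2 of the level plus 1, KO minus WT, and ratios are of mean levels.

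**Figure D2:**
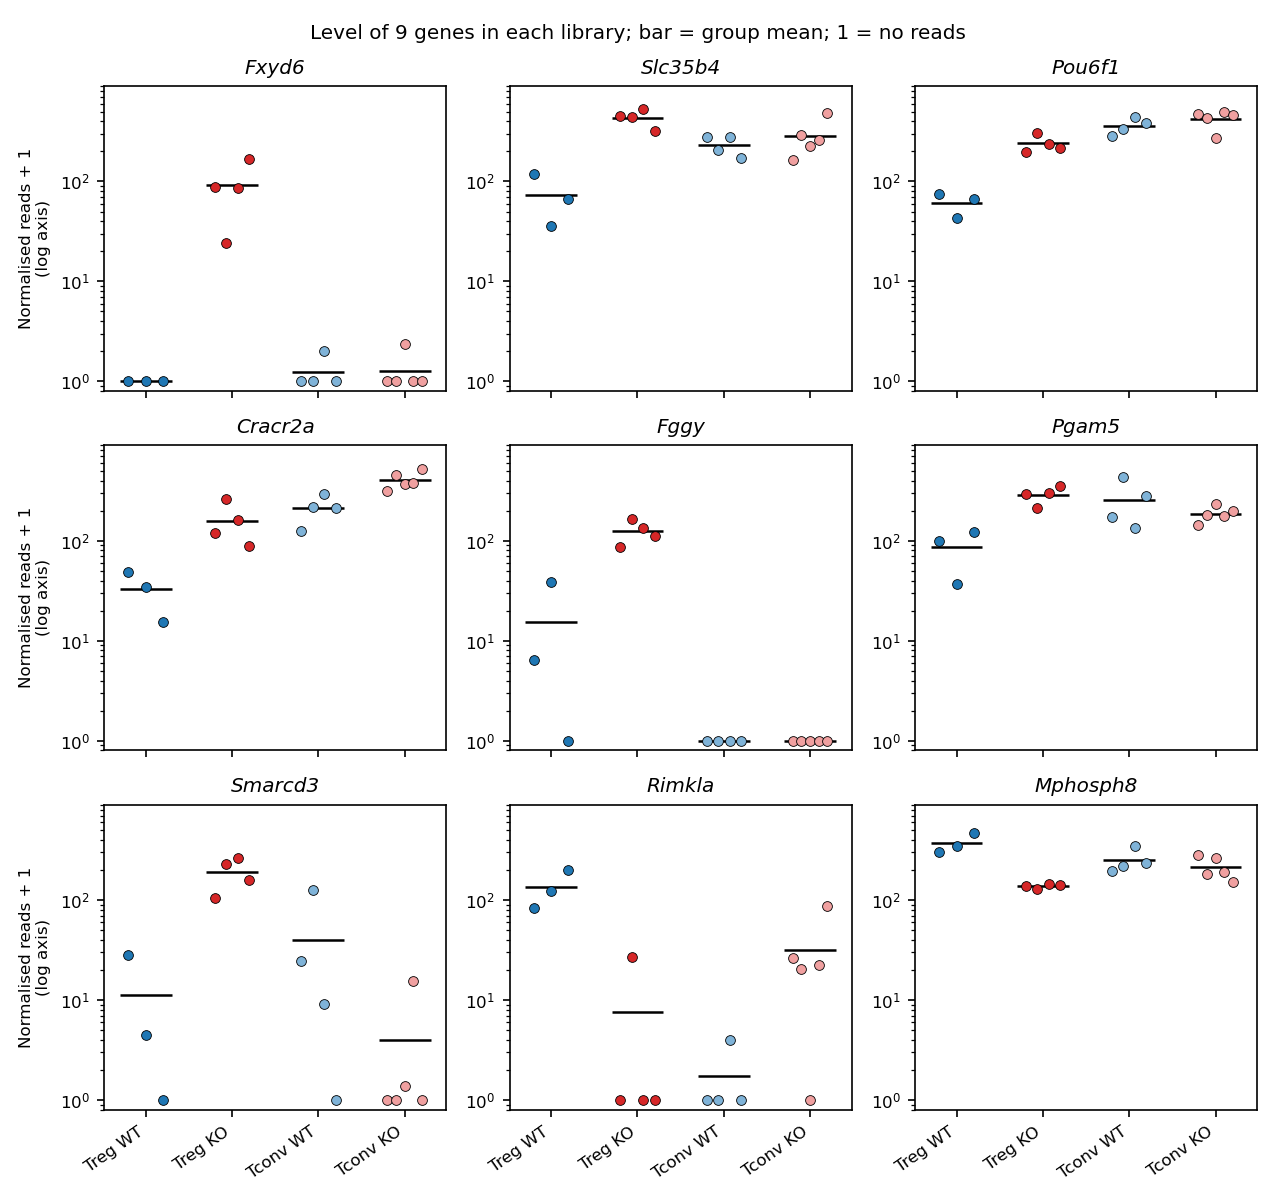
Level of each of the 9 genes in the 16 libraries on a log axis, where 1 is no reads; points are libraries, bars are group means. The Treg KO points of 7 genes lie above all Treg WT points, those of Rimkla and Mphosph8 lie below, and Fggy is at 1 in all Tconv libraries.

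Fxyd6 (chromosome 9, 45370185 to 45396159, plus strand, on mm10) had reads in every Treg KO library and in few others. It had no reads in any of the 3 Treg WT libraries and 72, 15, 60 and 171 reads in Treg KO 1 to 4, levels of 87.8, 24.1, 86.0 and 167. The 9 Tconv libraries held 1 read in Tconv WT 3 and 11 reads in Tconv KO 3, the deepest library, and no other. The mean in Treg KO was 91.3 ± 58.7 (SD, n = 4), which is 23.5-fold the mean level that 3 reads in each Treg WT library would give. The log2 difference was 5.24 with or without Treg WT 3. Every Treg KO library also lay above every Tconv library. No other annotated gene shares its exons.

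Slc35b4, a carrier of UDP-xylose and UDP-N-acetylglucosamine (chromosome 6, 34153380 to 34177111, minus strand), was lowest in Treg WT. Its levels were 118, 35.9 and 66.1 in Treg WT and 454, 445, 525 and 316 in Treg KO. Tconv WT libraries were at 279, 204, 276 and 169.9, and Tconv KO libraries at 163, 291, 224, 262 and 483. Treg WT was thus below every other library in the series, and Treg KO was above every Tconv WT library but overlapped Tconv KO. The Treg log2 difference was 2.69, and 2.70 without Treg WT 3, a ratio of means of 5.94. Gm13856, an antisense transcript, shares 10.01% of its exonic bases, and reads from both cannot be told apart without strand.

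Cracr2a, the calcium sensor (chromosome 6, 127561338 to 127674248, plus strand), was higher in Tconv than in Treg WT and was between them in Treg KO. Levels were 48.5, 34.1 and 15.3 in Treg WT and 120.3, 264, 159.6 and 87.6 in Treg KO. Tconv WT libraries were at 125, 218, 294 and 212, and Tconv KO libraries at 317, 451, 369, 377 and 522. Treg KO overlapped Tconv WT and lay below every Tconv KO library. The Treg log2 difference was 2.26, but 1.81 without Treg WT 3, the lowest library for this gene. Gm43634, a long noncoding gene on the same strand, shares 8.49% of its exonic bases.

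Fggy, the carbohydrate kinase (chromosome 4, 95557507 to 95926939, plus strand), had reads in Treg libraries and in no Tconv library. It had 6, 43 and 0 reads in Treg WT, levels of 6.48, 38.5 and 1.00, and levels of 86.6, 165, 134 and 111 in Treg KO. None of the 9 Tconv libraries had a read. The mean in Treg KO was 124 ± 33.6 (SD, n = 4). That is 25.4-fold the mean level that 3 reads per library would give in Tconv WT, and 37.8-fold that in Tconv KO. The ratio of Treg KO to Treg WT means was 8.11, and 33.2 without Treg WT 2, which holds most of the Treg WT reads. The log2 difference of 3.86 was 2.83 without Treg WT 3, the library with no Fggy reads, and 4.98 without Treg WT 2.

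Pgam5, the mitochondrial phosphatase (chromosome 5, 110259130 to 110269913, minus strand), had the narrowest gap of the 9. Levels were 100.5, 36.8 and 123 in Treg WT and 293, 213, 297 and 354 in Treg KO. Tconv WT libraries were spread from 135 to 435, and Tconv KO libraries lay between 144 and 231. The lowest Treg KO library was 0.78 log2 above the highest Treg WT library, and Treg KO overlapped both Tconv groups. The difference of means was 1.87 on the log2 scale, and 2.21 without Treg WT 3. Gm26718, a noncoding gene on the other strand, shares 58.07% of its exonic bases, so its level is uncertain.

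Rimkla, the N-acetylaspartylglutamate synthetase (chromosome 4, 119465283 to 119492628, minus strand), had the widest difference among the genes that were lower in Treg KO. Levels were 84.1, 124 and 202 in Treg WT. In Treg KO, libraries 1, 3 and 4 had no reads and library 2 had 17, a level of 27.1. Tconv WT had 3 reads in library 3 and no others, while 4 of the 5 Tconv KO libraries had levels of 20.5 to 86.3 and the deepest had no reads. Treg WT thus lay far above Tconv WT, and Treg KO overlapped both Tconv groups. The Treg log2 difference was -5.06, and -4.74 without Treg WT 3, with the Treg WT mean 18.1-fold higher. Without Treg KO 2, the single Treg KO library with reads, the log2 difference was -6.01. Zmynd12, on the other strand, shares 8.78% of its exonic bases.

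Pou6f1, the POU factor (chromosome 15, 100575318 to 100599984, minus strand), was lowest in Treg WT. Levels were 74.0, 42.9 and 67.2 in Treg WT and 199, 308, 235 and 217 in Treg KO. Tconv WT libraries were at 284, 334, 437 and 380.4, and Tconv KO libraries between 269 and 489. All Treg WT libraries lay below all others, and the Treg KO range reached into the lower end of both Tconv groups. The Treg log2 difference was 1.97, and 2.05 without Treg WT 3, a ratio of means of 3.91. No annotated gene shares its exons.

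Smarcd3, the BAF subunit (chromosome 5, 24590818 to 24624411, minus strand), was high in Treg KO and near no reads in most other libraries. Treg WT held 30, 4 and 0 reads, levels of 28.4, 4.49 and 1.00, and Treg KO was at 105, 231, 264 and 161. Tconv WT libraries were at 24.8, 125, 9.05 and 1.00, so that Tconv WT 2 reached the Treg KO range, and the Tconv KO libraries were at 1.00 to 15.4. Treg KO lay above every Tconv KO library. The Treg log2 difference of 4.71 was 3.83 without Treg WT 3 and 5.76 without Treg WT 1. Chpf2, a protein coding gene on the other strand, shares 48.16% of the exonic bases of Smarcd3, and reads of the pair cannot be told apart without strand. Chpf2, looked up after the values of Smarcd3 were seen, had the opposite order in Treg: 363 ± 68.0 (SD, n = 3) in Treg WT and 135 ± 68.0 (SD, n = 4) in Treg KO.

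Mphosph8, the HUSH subunit (chromosome 14, 56668248 to 56697430, plus strand), had Treg KO values close to each other and below all others. Levels were 303, 347 and 466 in Treg WT, and 138, 130.1, 145 and 140.1 in Treg KO, a mean of 139 ± 6.38 (SD, n = 4). Tconv WT libraries were at 196, 218, 350 and 233, and Tconv KO libraries between 152 and 284. The gap to Tconv was small, with the highest Treg KO library 0.06 log2 under the lowest Tconv KO library. The Treg log2 difference was -1.40, and -1.22 without Treg WT 3. Gm16973, on the other strand, shares 10.71% of its exonic bases.

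Against the Tconv libraries, Fxyd6 and Fggy were high and Mphosph8 was low in Treg KO, while the other 6 genes overlapped at least 1 Tconv group. Treg KO lay above all 9 Tconv libraries for Fxyd6 and Fggy and below all 9 for Mphosph8. Over all tested genes 3.86% were above and 2.48% below all Tconv libraries. Against Tconv WT, Fxyd6, Slc35b4 and Fggy were higher and Mphosph8 was lower without overlap (6.77% and 5.60% of all genes), and against Tconv KO, Fxyd6, Fggy and Smarcd3 were higher and Cracr2a and Mphosph8 lower (6.00% and 4.66%). In Treg WT, Slc35b4, Pou6f1, Cracr2a and Pgam5 lay below every Tconv WT library (6.10% of all genes) and Rimkla above (5.87%). The log2 distance from Tconv WT went from -1.78 in Treg WT to 0.91 in Treg KO for Slc35b4, from -2.55 to -0.58 for Pou6f1, from -2.74 to -0.48 for Cracr2a, from -1.57 to 0.30 for Pgam5 and from 5.68 to 0.62 for Rimkla, where the last value was -0.33 without Treg KO 2. For the other 4 genes it went from -0.15 to 5.09 for Fxyd6, from 2.07 to 5.93 for Fggy, from -1.22 to 3.50 for Smarcd3 and from 0.59 to -0.81 for Mphosph8. So 5 means lay nearer to Tconv WT in Treg KO and 4 lay farther from it. These distances share the Tconv WT libraries and the Treg libraries used for the choice, so they are descriptions. No Treg KO library held the top value of all genes: Treg KO 2 was highest for Pou6f1, Cracr2a, Fggy and Rimkla, Treg KO 3 for Slc35b4, Smarcd3 and Mphosph8, and Treg KO 4 for Fxyd6 and Pgam5.

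The genes were tested between genotypes in the Tconv libraries, which played no part in the rule of the choice. For Fxyd6 and Fggy the test says nothing, since no Tconv library reached a level of 10 and Fggy had no Tconv reads. None of the other 7 passed at a limma adjusted p under 0.05, with Benjamini-Hochberg adjustment over the 14319 genes, and no gene of the table did (0%), although 781 of them had an unadjusted p under 0.05 with limma and 1311 with limma-voom, which also passed none. Rimkla had the largest difference, 2.91 log2 higher in Tconv KO (SE 1.00, 95% interval 0.83 to 5.00, limma adjusted p = 0.858). That is the opposite sign to its Treg difference. Smarcd3 was at -2.34 (SE 1.06, interval -4.56 to -0.12, limma adjusted p = 0.897), again opposite to Treg. Cracr2a was the only one of the 9 whose Tconv groups did not overlap, with Tconv KO higher in 5 of 5 libraries, at 0.98 (SE 0.40, interval 0.14 to 1.82, limma adjusted p = 0.868). Of all genes, 0.866% had such a gap with Tconv KO higher. Slc35b4, Pou6f1, Pgam5 and Mphosph8 had differences of 0.23, 0.23, -0.33 and -0.22, with intervals from -0.54 to 1.00, -0.37 to 0.83, -1.16 to 0.50 and -0.83 to 0.39. None of the 7 passed without Tconv WT 1 or without Tconv WT 3, the libraries with neutrophil and red cell markers. Rimkla was then at 2.80 and 3.24, Smarcd3 at -2.11 and -2.56 and Cracr2a at 0.75 and 1.16. None passed without Tconv WT 4, the library with the highest CD8 T and NK cell sum. There Rimkla was at 2.80, Smarcd3 at -3.34 and Cracr2a at 1.00. Smarcd3 moved to -1.35 without Tconv WT 2, to -2.94 without Tconv KO 4 and to -3.54 with limma-voom. Rimkla moved to 3.72 without Tconv KO 3 and to 1.27 with limma-voom. Whether Treg and Tconv differ in their response was not tested, since the Treg side was chosen.

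**Figure D3:**
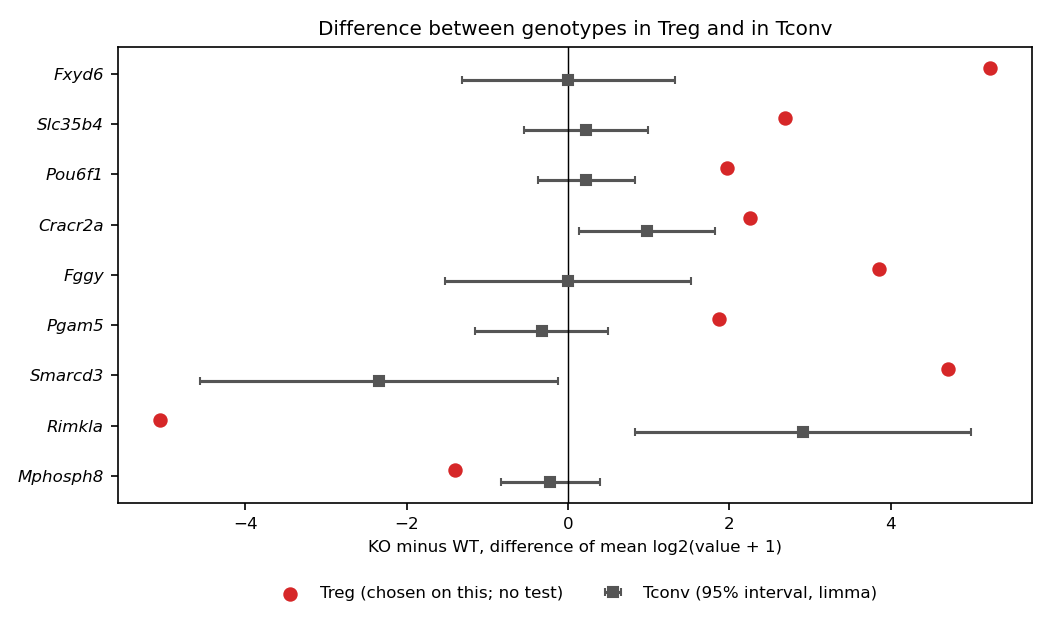
KO minus WT difference of mean log2(value + 1) for the 9 genes, in Treg (red circles, chosen on this difference, no test) and in Tconv (grey squares with 95% intervals from limma). The Tconv intervals of 6 genes include 0 and those of Cracr2a, Smarcd3 and Rimkla do not, and no Tconv difference passed after adjustment.

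Around the 9 genes, 122 genes of their pathways were listed in 9 lists, of which 110 could be tested. The lists were made with earlier results of these data known. Between the Treg groups none passed (smallest limma adjusted p = 0.607), while 3 genes (0.0210%) of the whole table did. An unadjusted limma p under 0.05 was found for 10 of the 110, and for 890 of all 14319 genes. Without Treg WT 3, none of the partners and 0 genes of the table passed. Their median log2 difference was 0.07, close to the 0.08 of all genes. Treg WT against Tconv WT gave 1 gene higher and 1 lower of 110, where 2.20% and 1.98% of all genes were, and Treg KO against Tconv KO gave 4 higher and 2 lower, where 4.16% and 2.65% of all genes were. None of these shares of the partners exceeded that of all genes, and whether the comparisons differ from each other was not tested. Between the Treg groups, Treg KO lay without overlap above Treg WT for 5 of the 110 (4.55%), Arid2, Bcl7c, Ripk1, Slc35a2 and Stimate, and below it for 5, Cbx3, Mlkl, Nfe2l2, Smarcd1 and Tasor, where all genes gave 3.35% and 2.66%. Ripk1 and Smarcd1 are named after their values were seen.

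Among partners of the membrane proteins, none of 7 sodium pump and FXYD genes passed in any comparison. Atp1b3, a sodium pump beta subunit, was at 2978 ± 695 (SD, n = 3) in Treg WT and 3682 ± 464 (SD, n = 4) in Treg KO, and Fxyd5 at 9609 ± 2937 (SD, n = 3) and 10520 ± 2466 (SD, n = 4). Of 19 nucleotide sugar and xylose linkage genes, 16 had a positive Treg difference, with a median of 0.45 against 0.08 for all genes, and none passed (smallest limma adjusted p = 0.813). B3gat3 and B4galt7, enzymes of the xylose-based linkage of proteoglycans, had 302 ± 102 and 212 ± 76.4 (SD, n = 4) in Treg KO against 173 ± 49.5 and 121 ± 75.2 (SD, n = 3) in Treg WT. Slc35a2, the UDP-galactose carrier, was higher in Treg KO than in Tconv KO by 1.58 log2 (SE 0.42, limma adjusted p = 0.0238), a call lost in 5 of 23 alternatives. Its levels were 251 ± 35.9 (SD, n = 4) and 93.2 ± 46.7 (SD, n = 5). Treg WT against Tconv WT gave 0.085 for Slc35a2 (SE 0.47, limma adjusted p = 0.965).

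Of 17 genes of store-operated calcium entry, 10 had a positive Treg difference (median 0.03) and none passed. Stimate, which helps STIM1 reach contacts with the plasma membrane, had 28.0 ± 35.1 (SD, n = 3) in Treg WT and 126 ± 76.0 (SD, n = 4) in Treg KO, a log2 difference of 3.12 (SE 0.94, limma adjusted p = 0.689) that ran from 1.76 to 4.31 as each library was left out. In Tconv it was at 39.7 ± 33.0 (SD, n = 4) in WT and 124 ± 19.5 (SD, n = 5) in KO, a difference of 2.10 (SE 0.83, limma adjusted p = 0.858). Orai2, a channel subunit, was at 546 ± 290 (SD, n = 3) in Treg WT and 835 ± 137 (SD, n = 4) in Treg KO. Stim1, the calcium sensor of the store, was higher in Treg KO than in Tconv KO by 0.75 log2 (SE 0.19, limma adjusted p = 0.0203), with levels of 1792 ± 303 (SD, n = 4) and 1067 ± 199 (SD, n = 5). Itpr2, a store release channel named after its values were seen, was higher by 0.65 (SE 0.19, limma adjusted p = 0.0445). Nfatc2, a transcription factor that this calcium route activates, was lower in Treg KO than in Tconv KO (-1.14 log2, SE 0.31, limma adjusted p = 0.0296), and its relative Nfatc1 was lower in Treg WT than in Tconv WT (-0.77, SE 0.21, limma adjusted p = 0.0469). In the other genotype the 4 differences had the same sign and did not pass. Treg WT against Tconv WT gave 0.76 for Stim1 (limma adjusted p = 0.0564), 0.55 for Itpr2 and -0.53 for Nfatc2. Treg KO against Tconv KO gave -0.55 for Nfatc1 (limma adjusted p = 0.0928). Of 23 alternatives, the call was lost in 15 for Nfatc1, 12 for Itpr2, 6 for Nfatc2 and 4 for Stim1.

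Among partners of the enzymes, none of 9 sugar kinase and pentose phosphate genes passed, with a median Treg difference of 0.09. Taldo1 was at 1133 ± 119 (SD, n = 3) in Treg WT and 1658 ± 548 (SD, n = 4) in Treg KO, and Rpia at 136 ± 70.9 and 88.3 ± 27.3. Of 14 Pgam5 partners, 7 had a positive Treg difference. Nfe2l2, the oxidative stress factor that PGAM5 can tether to mitochondria, had 404 ± 116 (SD, n = 3) in Treg WT and 156 ± 64.0 (SD, n = 4) in Treg KO, a log2 difference of -1.43 (SE 0.37), the smallest p of all partners in the Treg comparison (limma adjusted p = 0.607). Against Tconv KO, at 509 ± 83.5 (SD, n = 5), Treg KO was lower (-1.79 log2, SE 0.33, limma adjusted p = 0.00147). Treg WT against Tconv WT gave -0.113 for Nfe2l2 (SE 0.37, limma adjusted p = 0.931). Bcl2l1, an inhibitor of cell death that binds PGAM5, was higher in Treg than in Tconv in each genotype: by 1.44 log2 in WT (SE 0.37, limma adjusted p = 0.0286) and by 1.83 in KO (SE 0.32, limma adjusted p = 0.00115). The call in WT was lost in 6 of 23 alternatives and that in KO in none of them. Mlkl, the effector of necroptosis, was at 141 ± 82.3 (SD, n = 3) in Treg WT and 24.9 ± 21.02 (SD, n = 4) in Treg KO (limma adjusted p = 0.791). Of 4 tested N-acetylaspartate genes, 3 had a positive Treg difference (median 0.51) and none passed. Aspa was at 8.14 ± 3.20 (SD, n = 3) and 18.6 ± 12.5 (SD, n = 4), and Rimklb, the relative of Rimkla, at 1.30 ± 0.53 and 4.32 ± 6.00.

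Among partners of the nuclear proteins, none of 5 POU factor genes passed. Pou2f1 was at 467 ± 128 (SD, n = 3) in Treg WT and 311 ± 86.8 (SD, n = 4) in Treg KO, the opposite order to Pou6f1, and Pou2af1 at 1.29 ± 0.50 and 10.5 ± 17.3. Of 24 BAF genes, 10 had a positive Treg difference (median -0.07) and none passed. Arid2 was at 280.3 ± 27.2 (SD, n = 3) in Treg WT and 457 ± 44.8 (SD, n = 4) in Treg KO (0.70 log2, limma adjusted p = 0.742), and Bcl7c at 36.1 ± 6.50 and 96.5 ± 22.3 (1.38 log2, limma adjusted p = 0.765). Of 11 HUSH and silencing partners of Mphosph8, 3 had a positive Treg difference and 8 did not, with a median of -0.27 against 0.08 for all genes. Tasor, the scaffold that holds MPHOSPH8 in HUSH, was at 347 ± 85.4 (SD, n = 3) in Treg WT and 164 ± 43.4 (SD, n = 4) in Treg KO, a log2 difference of -1.09 (SE 0.33, limma adjusted p = 0.700). Cbx3, which binds the same histone mark as MPHOSPH8, was at 1253 ± 60.7 (SD, n = 3) and 867 ± 67.7 (SD, n = 4) (-0.53 log2, SE 0.18, limma adjusted p = 0.725). Without Treg WT 3, the Treg differences were -1.21 for Tasor, -0.53 for Cbx3, 0.64 for Arid2, 1.23 for Bcl7c, and, among the partners above, -1.25 for Nfe2l2 and 3.28 for Stimate. In Treg KO against Tconv KO, 1 of the 11 HUSH partners had a positive difference (median -0.45, all genes 0.035). None passed (smallest limma adjusted p = 0.0907). In Treg WT against Tconv WT, 2 of the 11 had a positive difference (median -0.15, all genes -0.004). None passed there either (smallest limma adjusted p = 0.316).

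**Figure D4:**
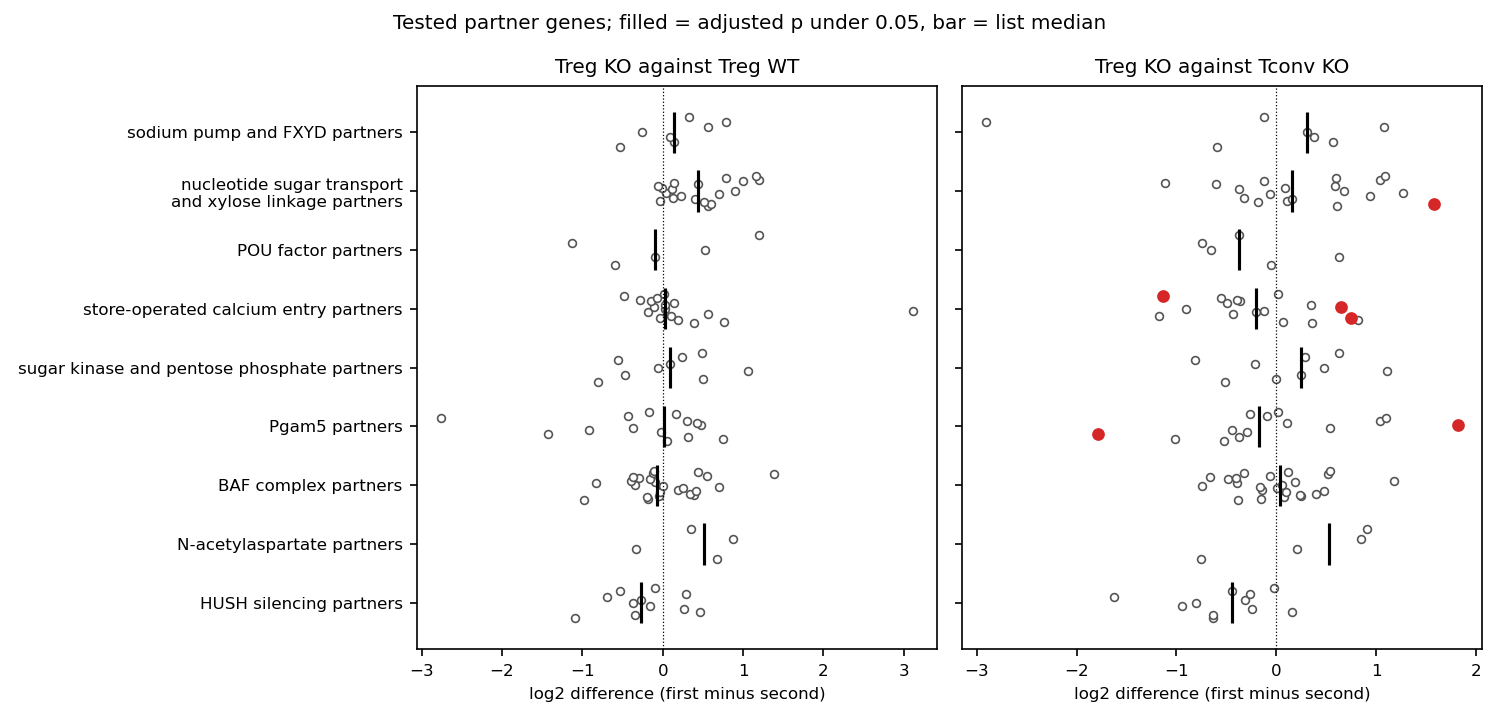
log2 differences of the 110 tested partner genes by list, Treg KO against Treg WT (left) and Treg KO against Tconv KO (right); each point is a gene, filled where the limma adjusted p is under 0.05, and bars are list medians. No point is filled on the left and 6 are on the right. The list medians on the left run from -0.27 for HUSH partners to 0.51 for the 4 N-acetylaspartate genes, with 0.45 for nucleotide sugar genes.

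For each of the 9, the gene with the most similar pattern over the 16 libraries was taken from 9151 genes with a mean level of 50 or more, by Pearson's r of log2 values. The libraries share the 4 groups, and the top of so many genes is high by selection, so the values are descriptions. Pou6f1 was most like Rbm48 (r = 0.913, Spearman's rank correlation 0.856), with group means of 114 and 233 in Treg (WT, then KO) and 348 and 379.5 in Tconv, the same order of groups as for Pou6f1. Cracr2a was most like Mpzl3 (r = 0.900, rank correlation 0.871), with 15.2, 37.6, 119 and 258 in that order. Fggy was most like Pdcd1, the inhibitory receptor PD-1 (r = 0.875, rank correlation 0.853), with 4803, 7539, 2175 and 1776. Slc35b4 was most like Top3b (r = 0.858, rank correlation 0.641), with 203, 551, 482 and 532, and Mphosph8 was most like Msantd2 (r = 0.828, rank correlation 0.909), with 136, 33.7, 84.8 and 83.9. For the other 4 the top genes were Prelid1 for Fxyd6 (r = 0.840, rank correlation 0.576) and Mrpl47 for Pgam5 (r = 0.831, rank correlation 0.691), then Lgals9 for Smarcd3 (r = 0.854, rank correlation 0.920) and Nsd1 for Rimkla (r = 0.827, rank correlation 0.786). Fxyd6 had no reads in most libraries, and its rank correlation was the lowest of the 9.

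Of the 9, Pgam5 had the narrowest gap, 0.78 log2. Mcee, a mitochondrial epimerase, overlapped by the least among the 494 overlapping genes counted below. Its levels were 26.6, 33.3 and 25.3 in Treg WT and 147, 33.3, 109 and 62.3 in Treg KO. Its Treg KO 2 level came under that of Treg WT 2 by 0.001 log2. Of the tested genes with at least the fold of Mphosph8, the smallest of the 9, and a higher group mean of 50 or more, 152 did not overlap between the Treg groups and 494 did. The 152 were counted with no minimum gap, so non-overlap at this fold and level does not by itself set the 9 apart.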

How the data were processed

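Libraries were made with SMART-seq2, which does not mark strand, and sequenced on a NextSeq 500, per the labels' protocols. The deposited signal is a read number scaled by the size factor of its library, with 1 added; this was read from the values, since values under 1000 reads came out whole within 0.1 read in 100.0% of cases. CASAVA 1.8, kallisto 0.44, Partek 6.6, R 3.3.1, DESeq2 and mm10 are named, without roles, per the submitters' processing notes. The counting annotation, strand setting and sort markers are not stated in the sources at hand.

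Values were taken as log2 of the value plus 1, which makes folds of weakly expressed genes too small. The 14319 genes that reached 10 in 3 libraries entered 1 limma 3.58.1 model (R 4.3.3) of all 16 libraries and 4 groups, with its trend option, whose p-values are 2-sided and adjusted by Benjamini-Hochberg over all genes, at a threshold of 0.05. The planned edgeR alternative was not run. In its place stood limma-voom on reads recovered from the deposited values, chosen after seeing the data. Floors of 3 reads cover counting error only, and folds over them do not take in the spread of the Treg KO libraries.

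The 9 genes, the 9 partner lists and the marker lists were chosen with earlier results of these data known. Named partners are, per list, up to 3 passing genes with the smallest p in Treg against Tconv and the 2 with the smallest p in Treg KO against Treg WT. Named similar genes are the highest Pearson r among genes with a mean of 50 or more, without unnamed or antigen receptor genes. Positions and overlaps are from GENCODE M21 (94.2% of symbols found), and promoters from RefSeq. Limma was run on simulated data with independent libraries and changes planted in Tconv KO, only in genes of high mean level. That run does not cover changes in weakly expressed genes or libraries that share animals.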

Additional observations from a re-analysis of the deposited data

Results flagged for a closer look

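Of 25 groups of 4 or 5 libraries examined for the 9 genes, 6 held a library far from the others by Dixon's criterion. Chance gives about 1 in 20 for normal values, which says nothing about 4 of the 6, where a library with reads stood beside libraries without any. Rimkla in Treg KO 2 was at 27.12, on 17 reads, while the other Treg KO libraries were at 1.00. Pou6f1 in Tconv KO 3, the deepest library, was at 269.05, while the others were between 426.43 and 489.23. Smarcd3 in Tconv KO 4 was at 15.36, on 18 reads, against at most 1.38 in the others. The remaining cases rest on few reads: Fxyd6 was at 2.01 in Tconv WT 3 (1 read) and at 2.39 in Tconv KO 3 (11 reads), and Rimkla was at 4.02 in Tconv WT 3 (3 reads), each beside libraries at 1.00. No cause was tested.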

How the results depend on the processing

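Of the 18 settings applied to the 9 genes, only quantile scaling could have made their Treg groups overlap, and it did not. Another pseudocount or a library left out cannot make separated groups overlap, so those settings say nothing about this. Rimkla in Treg KO against Tconv WT, where the groups overlap, turned from 0.62 to -0.33 without Treg KO 2. None passed in Tconv under 23 alternatives, of which the fit of only the 2 groups held 7 of the 9. For Fxyd6 in Tconv, with reads in 1 library of each genotype, the sign of the difference turned to -0.305 with quantile scaling and -0.346 with limma-voom, and ran from -0.147 to 0.153 as each library was left out. In Treg KO against Treg WT, leaving out each library gave -0.088 to 0.364 for Fxyd5, -0.126 to 0.042 for Stim1, -0.355 to 0.129 for Nfatc1 and -0.349 to 0.020 for Itpr2. Partners passing in Treg WT against Tconv WT (2) fell to 1 with no filter or only the 2 groups in the fit, and to 0 with limma-voom, and ran from 0 to 3 as libraries were left out. Nfatc1 missed the threshold in 15 of 23 alternatives, Itpr2 in 12, Bcl2l1 (WT) and Nfatc2 in 6, Slc35a2 in 5 and Stim1 in 4, while Bcl2l1 and Nfe2l2 in Treg KO against Tconv KO passed in all 23. Partners passing in Treg KO against Tconv KO (6) ran from 2, without Treg KO 3 or Tconv KO 5, to 8. Genes of the table passing between the Treg groups (3) went to 1 with a filter at 50 and to 0 with only the 2 groups, with the replicate block or with limma-voom, and ran from 0, without Treg WT 3, to 17, without Treg WT 1. Those passing in Treg WT against Tconv WT (599) went to 341 with only the 2 groups and 288 with limma-voom, and ran from 338, without Treg WT 3, to 664. The causes were not tested. Deviations from the group means in same-numbered libraries of different groups had correlations of -0.037 to 0.079 (21 pairs). Differently numbered libraries were not compared, so whether the numbers pair the samples cannot be told from this. With the replicate block 5 partners passed in Treg KO against Tconv KO. Genes under 3 reads are at the limit of the depth.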
